A study of Mus musculus with 4 samples.

Results

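The methionine cycle and its methyl-donating branches are represented here by 10 genes: Mat1a, Mat2a, Mat2b, Ahcy, Bhmt, Bhmt2, Cbs, Gnmt, Pemt and Nnmt. They were chosen by name for the reactions their enzymes catalyse, with earlier results of these data known, and the rule itself uses no methylation value. All 10 were found among the 20807 autosomal protein-coding genes of the GENCODE vM21 annotation (mouse build GRCm38, mm10). For each gene, CpG methylation was read in 4 windows: the promoter (from 1 kb before to 1 kb after the start site), the upstream and downstream flanks (1 to 3 kb from the start site) and the gene body (from 1 kb past the start to the gene end). Since every member is longer than 3 kb, its downstream flank lies inside its gene body, and these windows share CpGs.

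The data were whole-genome bisulfite sequencing (WGBS) libraries of 4 embryonic brains, each from a single male embryo at embryonic day E11.5 of the strain 129S6.cg Tet1<tm1Koh>. In WGBS, unmethylated cytosines appear as thymines after conversion, and the methylation level of a CpG is the percentage of its reads still showing a cytosine. The groups were Tet1 knockout (KO) and wild type (WT), each under excess (30 ppm) or control (3 ppm) folic acid (FA), with 1 library per group. The study added these libraries to check across the whole genome its reduced-representation bisulfite sequencing of brains lacking Tet1, a dioxygenase that oxidises 5-methylcytosine. For the reduced-representation libraries the paper describes an oxidation step, meant to map 5-methylcytosine alone, and for WGBS it describes none. Levels from the different methods therefore need not measure the same.

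All dams were heterozygous for the knockout allele, and both diets contained the antibiotic succinyl sulfathiazole. The allele was made on C57BL/6 and backcrossed to 129S6, whereas reads were placed on the C57BL/6 reference. By embryo number, a list the study gives for its reduced-representation libraries matches every embryo here, and in it both KO embryos carry a neural tube defect, both WT embryos are normal, and the litters differ. Genotype therefore cannot be told apart from phenotype or litter in these libraries, nor diet from litter. None of the 10 genes lies on chromosome 10, which carries Tet1.

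The methionine cycle makes S-adenosylmethionine (SAM), the methyl donor of most methylation reactions, including DNA methylation. SAM is made from methionine by methionine adenosyltransferases, gives up its methyl group and becomes S-adenosylhomocysteine, which is split to homocysteine. Homocysteine is remethylated to methionine with a methyl group from folate or betaine, or is drawn off to cysteine. Several of these enzymes are known foremost from liver, and their levels in a cell cannot be read from promoter methylation.

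Autosomal CpGs were covered on average by 13.2 (KO 30 ppm), 14.3 (WT 30 ppm), 21.2 (KO 3 ppm) and 16.2 reads (WT 3 ppm). Levels used the 14907672 autosomal CpGs that reached 5 reads in every library. The mean CpG level was 83.5% and 82.8% in the KO libraries and 81.4% and 82.1% in the WT libraries (30 and 3 ppm in each case). Mitochondrial CpGs, taken as the background of incomplete conversion, read 0.914% to 0.938%. Promoters of marker genes were read beside the tissue label, but promoter methylation alone does not name a cell type. The promoters of the neural genes Sox1, Sox2, Pax6, Nes and Otx2 read 0.00% to 11.9%. Those of the liver genes Alb, Afp, Apoa1 and Ttr read 82.6% to 95.4%, and those of the blood genes Ptprc, Cd34 and Spi1 66.7% to 90.7%. Among endothelial genes, Pecam1 and Cdh5 read 86.3% to 93.7% and Kdr 2.26% to 8.39%. Cell types were not counted, and their part in the values below was not tested.

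Sequences of 4 places named in the comparisons below are printed from the RefSeq assembly GRCm38.p6, 5′ to 3′ on the strand of the gene. In the first 3, capitals mark each CG with at least 5 reads in every library. In the Bhmt2 sequence, capitals mark every CG, none of which reached 5 reads in every library. The Mat1a sequence is the 300 bases before the start site (chr14:41104735-41105034, + strand), where 5 of 7 CGs were measured. The Pemt sequence is intronic (chr11:59975373-59975619, - strand, 8 of 8 CGs) and the Bhmt sequence lies in the gene body (chr13:93621486-93621738, - strand, 13 of 13 CGs). Both are the CpG-densest stretches of tiles picked for their called difference between KO and WT. The Bhmt2 sequence is the gap of 130 bases between its start site and that of Dmgdh, which is transcribed the other way (chr13:93674303-93674432, - strand, 6 CGs). Embryos of the 129S6 background can differ from these reference letters.
Mat1a: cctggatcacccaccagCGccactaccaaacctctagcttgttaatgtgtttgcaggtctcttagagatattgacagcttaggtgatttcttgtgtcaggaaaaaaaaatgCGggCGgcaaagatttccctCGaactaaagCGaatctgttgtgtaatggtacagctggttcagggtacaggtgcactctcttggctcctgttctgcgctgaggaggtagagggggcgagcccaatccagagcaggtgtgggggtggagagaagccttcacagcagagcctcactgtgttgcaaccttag
Pemt: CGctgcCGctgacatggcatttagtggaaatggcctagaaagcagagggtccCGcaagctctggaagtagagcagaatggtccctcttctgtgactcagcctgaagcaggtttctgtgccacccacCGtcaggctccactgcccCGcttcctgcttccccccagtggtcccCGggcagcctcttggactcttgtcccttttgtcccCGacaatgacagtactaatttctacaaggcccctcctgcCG
Bhmt: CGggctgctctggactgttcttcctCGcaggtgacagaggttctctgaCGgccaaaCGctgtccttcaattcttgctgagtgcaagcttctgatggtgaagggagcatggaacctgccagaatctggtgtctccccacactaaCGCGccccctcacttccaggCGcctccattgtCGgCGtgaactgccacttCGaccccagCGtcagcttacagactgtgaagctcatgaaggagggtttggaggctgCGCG
Bhmt2: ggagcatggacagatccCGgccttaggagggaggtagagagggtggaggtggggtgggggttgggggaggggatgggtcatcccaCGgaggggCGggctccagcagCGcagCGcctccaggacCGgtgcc

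Across the 10 promoters, methylation ran from 2.15% to 91.6%. Ordered by the median of the 4 libraries, the promoters were Mat2a (3.91%), Ahcy (12.7%), Cbs (15.5%), Mat2b (17.7%), Pemt (51.9%), Gnmt (57.4%), Nnmt (74.2%), Bhmt2 (77.7%), Mat1a (80.9%) and Bhmt (82.5%). The ranges over libraries of Ahcy, Cbs and Mat2b overlapped from each gene to the next, as did those of Nnmt, Bhmt2, Mat1a and Bhmt. The range of Mat2a did not reach that of Ahcy, and Pemt and Gnmt stood apart from their neighbours in the order. The promoters with a median under 20% had an observed over expected CpG ratio of 0.52 (Mat2b) to 0.90 (Mat2a). In the other 6 this ratio was 0.18 (Nnmt) to 0.50 (Pemt). The share of CpGs measured differed much, from 22 of 157 CpGs in Mat2a and 26 of 111 in Cbs to 31 of 32 in Bhmt. In both Pemt and Bhmt2 it was 18 of 58. In Mat2a the measured CpGs all lay in the outer stretches of the window. In Bhmt2 none lay between positions -347 and 196. CpGs listed at the Bhmt2 start with too few reads, described below, read 45.9% in KO 30 ppm, 3.80% in WT 30 ppm, 21.4% in KO 3 ppm and 6.11% in WT 3 ppm.

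**Figure D1:**
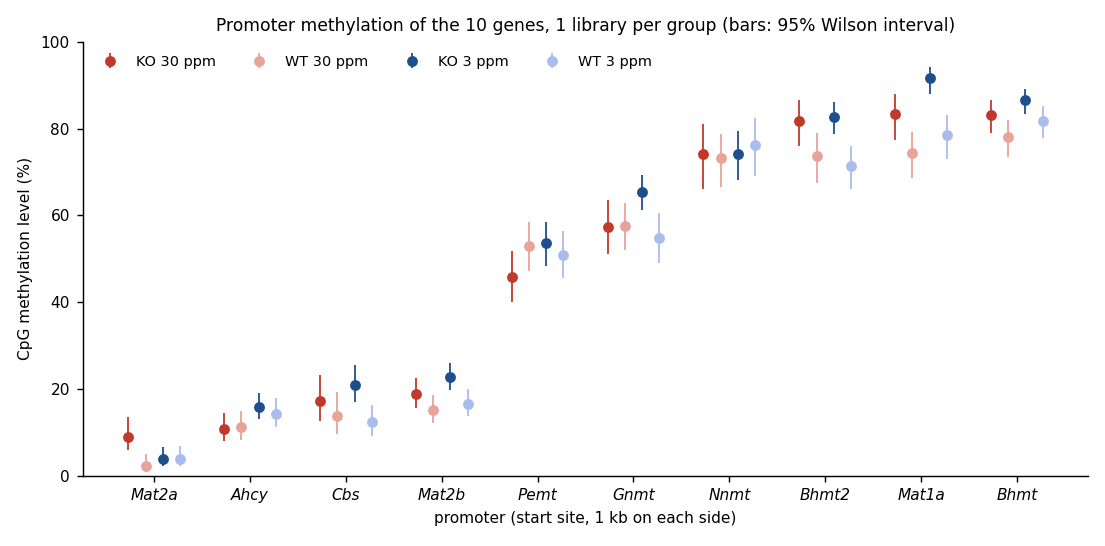
Promoter methylation level in percent (y axis) of the 10 genes (x axis, ordered by median level), with 1 point per library in 4 colours and bars for the 95% Wilson interval of the counts. Mat2a, Ahcy, Cbs and Mat2b stayed under 23%, while Nnmt, Bhmt2, Mat1a and Bhmt stayed above 71%. Levels are those of the measured CpGs, which in Bhmt2 leave out the stretch around the start.

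Outside the promoters, the members were mostly methylated. Gene bodies read 64.1% (Mat2b, KO 30 ppm) to 92.3% (Gnmt, KO 30 ppm), and upstream flanks 58.6% (Nnmt, WT 30 ppm) to 96.9% (Mat2b, WT 3 ppm). Among downstream flanks, Mat2b read 0.858% to 2.72% and Mat2a 37.7% to 45.2%, whereas the other 8 stayed above 60%. The 5′-most start site of Mat2b lies at the edge of a methylated stretch. Its CpGs at positions -500 to -251 from the start read 94.8% to 100%, and those at positions 250 to 499 read 0.00% to 1.45%. In the transcript with the longest coding sequence, Mat2b starts downstream, at chr11:40692774 in place of chr11:40695203.

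For each of the 4 comparisons, the methylated and unmethylated counts of 2 libraries were compared by Fisher's exact test (two-sided), with Benjamini-Hochberg adjustment over all genes for each window type. Calls required an adjusted p under 0.05 together with a gap of 5 percentage points or more. A read counts at each CpG it covers, so the counts are not independent, and p-values and intervals can be too small. With 1 library per group, the test compares 2 libraries, not 2 conditions, and no value has a replicate error.

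In KO against WT at 30 ppm, 2 of the 40 member windows were called higher and 0 lower, set against 13.2% and 0.232% of the 79265 windows of all genes. At 3 ppm, 5 of 40 were called higher and 0 lower, set against 13.2% and 0.619%. All 5 calls at 3 ppm were promoters: Mat1a, Mat2b, Bhmt2, Cbs and Gnmt. That made 5 of 10 promoters at 3 ppm, where 24.4% of all promoters were called higher, and 1 of 10 at 30 ppm (Mat2a), where 20.4% were. The members' median promoter difference was 3.62 points (30 ppm) and 5.40 points (3 ppm), beside 3.93 and 3.31 points over all promoters. Over all 4 window types, the members' share of calls was not above that of all genes at either diet. All 4 comparisons share libraries with each other, so their values are given side by side and not as independent results.

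**Figure D2:**
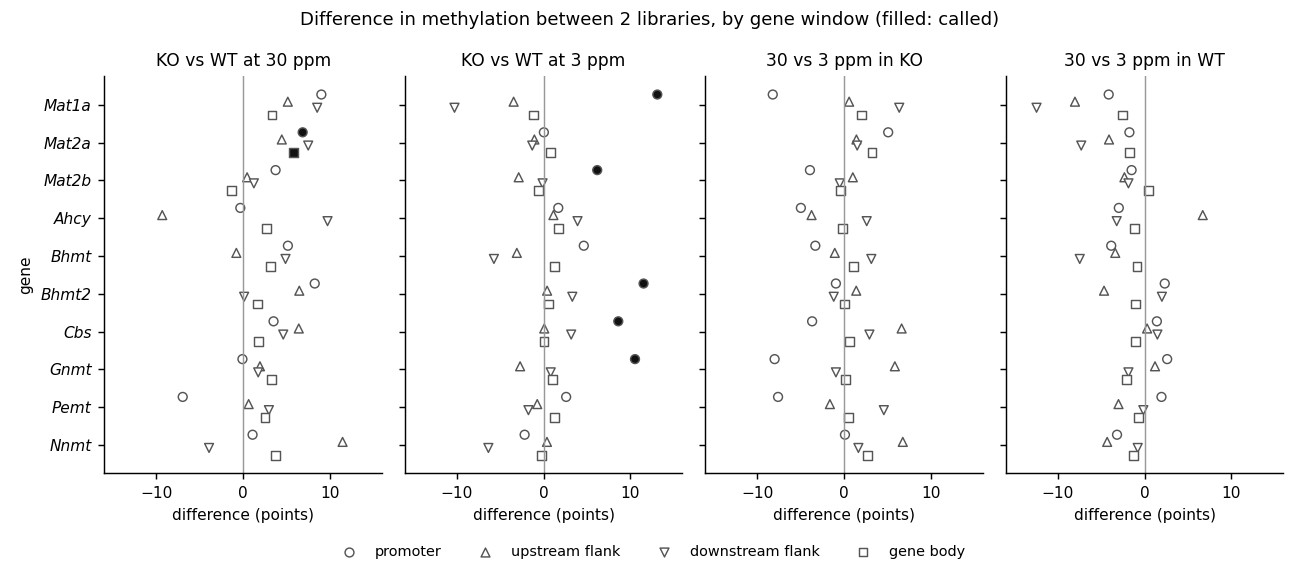
Difference in methylation in percentage points (x axis) for each gene (y axis) and window type (marker shape), in 4 panels, 1 per comparison of 2 libraries, with the first-named library minus the other. Filled markers are called windows: 2 in KO against WT at 30 ppm, 5 at 3 ppm and 0 in both diet comparisons.

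The methionine adenosyltransferases make SAM. Mat1a, the isoenzyme typical of adult liver, had a promoter (15 CpGs) that read 83.3% (95% interval 77.3 to 88.0%) in KO 30 ppm, 74.3% (68.6 to 79.3%) in WT 30 ppm, 91.6% (88.0 to 94.1%) in KO 3 ppm and 78.5% (73.1 to 83.0%) in WT 3 ppm. Both KO libraries were thus above both WT libraries. The same held at the promoters of Mat2a (3.93% against 3.90% at the closest), Mat2b, Bhmt, Bhmt2 and Cbs. Over all promoters, KO was above WT in 77.3% at 30 ppm and 75.0% at 3 ppm, and the share with both was not counted. At Mat1a, KO was 13.1 points above WT at 3 ppm (interval 7.31 to 19.1, adjusted p = 0.000118, Fisher's exact test). The 9.01 points at 30 ppm were not called (interval 1.22 to 16.4, adjusted p = 0.0984 by the exact test). At each diet, 13 of the 15 CpGs were higher in KO. With 2.5 kb on each side of the Mat1a start, the 4.73 points at 3 ppm were not called (adjusted p = 0.110, exact test), whereas the 7.41 points at 30 ppm were (adjusted p = 0.0475, exact test). In the 5 measured CGs of the printed Mat1a sequence, the level was 73.5% in KO 30 ppm, 63.7% in WT 30 ppm, 94.7% in KO 3 ppm and 69.7% in WT 3 ppm. The measured CG nearest the start, at position -159, read 63.6%, 23.1%, 85.7% and 44.4% in the same order, from 11 to 21 reads.

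Mat2a encodes the catalytic subunit used outside the liver. Its promoter (22 CpGs) read 9.00% (5.84 to 13.6%) in KO 30 ppm, 2.15% (0.92 to 4.92%) in WT 30 ppm, 3.93% (2.31 to 6.60%) in KO 3 ppm and 3.90% (2.19 to 6.85%) in WT 3 ppm. KO 30 ppm was the highest, and its interval overlapped those of both 3 ppm libraries but not that of WT 30 ppm. The 6.86 points of KO over WT at 30 ppm were called (interval 2.65 to 11.6, adjusted p = 0.0106, Fisher's exact test), and the 0.0268 points at 3 ppm were not (interval -3.34 to 3.20). The gap was widest in 6 CpGs at the upstream edge, positions -1000 to -751 from the start, which read 27.3% in KO 30 ppm, 1.75% in WT 30 ppm, 12.8% in KO 3 ppm and 18.9% in WT 3 ppm. No CpG within 500 bases of the start had 5 reads in every library. With at least 10 reads per CpG, only the 7 CpGs at positions 750 to 999 remained, and none at that upstream edge. Over these the difference at 30 ppm was 1.36 points (adjusted p = 0.873 by the exact test). The Mat2a gene body (38 CpGs) was also called higher in KO at 30 ppm, with 84.8% against 79.0% (5.80 points, adjusted p = 0.0181, Fisher's exact test). That body call held in 6 of 9 tested settings, with 5.21 to 5.80 points. Changes of promoter width or start site left the Mat2a body window as it was, so those settings were no check on it. At 3 ppm the Mat2a body read 81.6% in KO and 80.8% in WT.

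Mat2b encodes the regulatory subunit that binds the Mat2a enzyme. Its promoter (39 CpGs) read 18.8% (15.6 to 22.5%) in KO 30 ppm, 15.1% (12.1 to 18.6%) in WT 30 ppm, 22.8% (19.8 to 26.0%) in KO 3 ppm and 16.6% (13.7 to 19.9%) in WT 3 ppm. The 6.18 points of KO over WT at 3 ppm were called (adjusted p = 0.0298, Fisher's exact test). The Mat2b call held in 3 of 9 tested settings. The call was lost with 10 reads per CpG (adjusted p = 0.324, exact test) and at matched mean coverage (adjusted p = 0.199, exact test). At the start of the longest coding transcript the value turned below 0. The direction did not hold CpG by CpG, since 6 CpGs were higher and 8 lower in KO at 3 ppm, and the mean over CpGs gave -1.09 points. The promoter joins CpGs near 100% with CpGs near 0%, so its level moves with the share of reads that fall on each.

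Ahcy splits S-adenosylhomocysteine, the product and inhibitor of methyltransferases. Its promoter (36 CpGs) read 10.8% (8.10 to 14.4%) in KO 30 ppm, 11.2% (8.31 to 14.9%) in WT 30 ppm, 15.8% (13.1 to 19.0%) in KO 3 ppm and 14.1% (11.1 to 17.8%) in WT 3 ppm. The 4 intervals overlapped. KO minus WT was -0.327 points in the excess FA pair and 1.69 points in the control FA pair, and neither was called. With no minimum of reads, the value at 30 ppm was -6.01 points and was called lower (adjusted p = 0.0101, Fisher's exact test). Summed over the 250 bases on each side of the start, Ahcy read 0.00% to 2.06%, while single CpGs there, with as few as 5 reads, reached 20%.

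Bhmt and Bhmt2 remethylate homocysteine with betaine and S-methylmethionine, respectively, and lie side by side on chromosome 13. The Bhmt promoter (31 CpGs) read 83.1% (78.9 to 86.7%) in KO 30 ppm, 78.0% (73.5 to 81.9%) in WT 30 ppm, 86.5% (83.4 to 89.0%) in KO 3 ppm and 81.8% (77.8 to 85.3%) in WT 3 ppm. Its KO minus WT values, 5.16 points at 30 ppm and 4.63 points at 3 ppm, were not called. With 10 reads per CpG, the value at 3 ppm was 8.51 points and was called (adjusted p = 0.0454, Fisher's exact test). CpG by CpG, 11 were higher and 17 lower in KO at 30 ppm, and 17 were higher and 12 lower at 3 ppm. The Bhmt2 promoter (18 CpGs) read 81.8% (76.0 to 86.5%) in KO 30 ppm, 73.6% (67.5 to 78.9%) in WT 30 ppm, 82.8% (78.7 to 86.2%) in KO 3 ppm and 71.2% (66.1 to 75.9%) in WT 3 ppm. Both KO libraries were above both WT libraries, as at the promoters listed with Mat1a. At Bhmt2, KO was 11.52 points above WT at 3 ppm (interval 5.29 to 17.7, adjusted p = 0.00283, Fisher's exact test). The Bhmt2 call was lost with 10 reads per CpG (adjusted p = 0.0673), at matched mean coverage (adjusted p = 0.0630) and with 0.5 kb on each side (adjusted p = 0.120), all by the exact test. Over all settings the difference at 3 ppm ran from 6.43 to 16.9 points, and it was largest with 0.5 kb on each side. At 30 ppm the 8.25 points were not called (interval 0.396 to 15.9, adjusted p = 0.155 by the exact test), but with 0.5 kb on each side 26.8 points were (adjusted p = 0.0444, exact test). The same difference was 1.71 points with 10 reads per CpG and 3.86 points with 2.5 kb on each side, neither called.

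The Bhmt2 window also holds the start of Dmgdh, which encodes dimethylglycine dehydrogenase, so the value belongs to both genes. Methylation at Bhmt2 dipped at the start. CpGs up to 249 bases after it read 37.5% in KO 30 ppm, 17.6% in WT 30 ppm, 23.5% in KO 3 ppm and 15.2% in WT 3 ppm, from 3 CpGs. The next 250 bases read 68.8%, 21.4%, 75.0% and 45.5% in the same order, from 2 CpGs. Over each of these stretches KO exceeded WT at both diets, and 15 of 18 promoter CpGs were higher in KO at 30 ppm and 14 of 18 at 3 ppm.

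Cbs draws homocysteine off toward cysteine. Its promoter (26 CpGs) read 17.3% (12.6 to 23.1%) in KO 30 ppm, 13.8% (9.56 to 19.4%) in WT 30 ppm, 20.9% (17.1 to 25.5%) in KO 3 ppm and 12.3% (9.20 to 16.4%) in WT 3 ppm. KO was 8.60 points above WT at 3 ppm (interval 3.00 to 14.1, adjusted p = 0.0149, Fisher's exact test), with 17 CpGs higher and 3 lower in KO. The Cbs call was lost with 10 reads per CpG (adjusted p = 0.485), at matched mean coverage (adjusted p = 0.152) and with 0.5 kb on each side (adjusted p = 0.244), all by the exact test. At 30 ppm the difference was 3.50 points (interval -3.80 to 10.7), or -8.33 points with 10 reads per CpG and 6.85 points with no minimum, and was not called. With 10 reads per CpG, only CpGs at positions 924 to 962 remained at either diet, so those values describe a small part of the promoter. The 11 CpGs measured up to 499 bases after the start lay between 0.00% and 9.09% by 250-base bin, while the 4 CpGs at positions -750 to -501 read 41.4% in KO 30 ppm, 28.0% in WT 30 ppm, 32.9% in KO 3 ppm and 15.6% in WT 3 ppm.

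Gnmt, Pemt and Nnmt consume SAM by methylating glycine, phosphatidylethanolamine and nicotinamide. The Gnmt promoter (28 CpGs) read 57.4% (51.1 to 63.4%) in KO 30 ppm, 57.5% (51.9 to 62.8%) in WT 30 ppm, 65.4% (61.2 to 69.3%) in KO 3 ppm and 54.9% (49.1 to 60.5%) in WT 3 ppm. KO 3 ppm was the highest, and its interval overlapped those of both 30 ppm libraries but not that of WT 3 ppm. KO was 10.5 points above WT at 3 ppm (interval 3.51 to 17.5, adjusted p = 0.0195, Fisher's exact test) and differed by -0.0833 points at 30 ppm (interval -8.32 to 8.10). The Gnmt call was lost with 10 reads per CpG (9.495 points, adjusted p = 0.293), at matched mean coverage (7.50 points, adjusted p = 0.275) and with 2.5 kb on each side (1.45 points, adjusted p = 0.634), all by the exact test. At 30 ppm the Gnmt value was 11.54 points with 10 reads per CpG and 12.98 points with 0.5 kb on each side, neither called.

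The Pemt promoter (18 CpGs) read 45.9% (40.0 to 51.9%) in KO 30 ppm, 52.9% (47.2 to 58.5%) in WT 30 ppm, 53.5% (48.4 to 58.5%) in KO 3 ppm and 50.9% (45.5 to 56.3%) in WT 3 ppm. By position, its 4 CpGs at -250 to -1 read 0.00% to 7.41%, while the 6 at 750 to 999 read 67.1% to 75.4%. As at Mat2b, the level of the whole window thus moves with the share of reads on each stretch. KO 30 ppm was the lowest of the 4 libraries, with -6.97 points against WT and no call (adjusted p = 0.268 by the exact test). That direction did not hold in every setting: the mean over CpGs gave 2.74 points, the summed reads with 0.5 kb on each side gave 2.62 points, and 10 CpGs were higher and 7 lower in KO. The Nnmt promoter (12 CpGs) read 74.2% (66.0 to 81.0%) in KO 30 ppm, 73.1% (66.6 to 78.8%) in WT 30 ppm, 74.1% (68.1 to 79.4%) in KO 3 ppm and 76.3% (69.0 to 82.4%) in WT 3 ppm. All 4 Nnmt intervals overlapped. The interval of KO minus WT ran from -8.88 to 10.5 points at 30 ppm and from -10.8 to 6.84 points at 3 ppm.

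**Figure D3:**
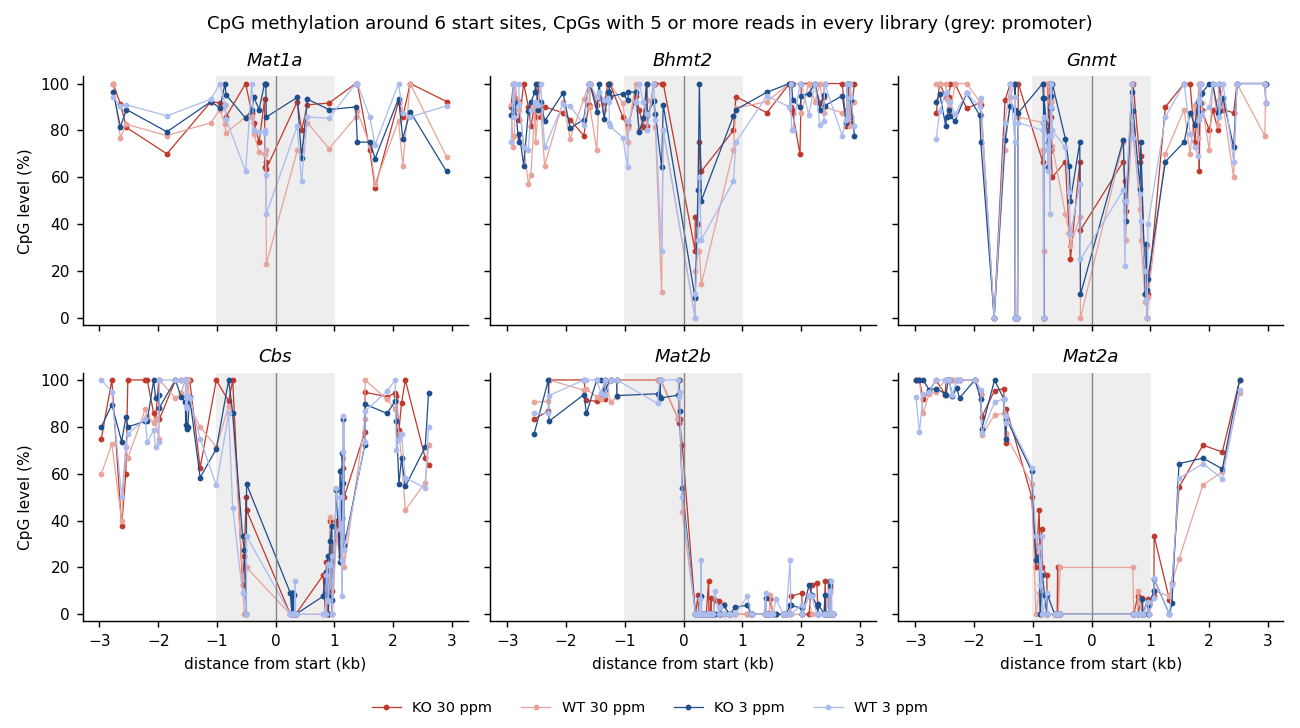
Methylation level in percent (y axis) of single CpGs against the distance from the start site in kb (x axis), for 6 genes and 4 libraries (colours), with lines joining neighbouring CpGs and the promoter in grey. Cbs, Mat2b and Mat2a fall to near 0% past or around the start, Bhmt2 and Gnmt dip in part, and Mat1a stays methylated, with WT 30 ppm at 23.1% and WT 3 ppm at 44.4% in the CpG at position -159.

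In the windows that were not called, KO minus WT at 30 ppm ran from -9.33 points (Ahcy upstream flank) to 11.46 points (Nnmt upstream flank). At 3 ppm it ran from -10.3 points (Mat1a downstream flank) to 4.63 points (Bhmt promoter). Counting all 40 windows, 33 were above 0 at 30 ppm and 24 at 3 ppm, with medians of 3.22 and 0.39 points beside 2.56 and 1.45 points over all windows. By window type over all genes, 70.4% (upstream flanks) to 85.6% (gene bodies) were above 0 at 30 ppm. At 3 ppm these shares were 61.3% (upstream flanks) to 75.0% (promoters). The Pemt gene body (631 CpGs) read 87.5% in KO 30 ppm, 85.0% in WT 30 ppm, 87.0% in KO 3 ppm and 85.7% in WT 3 ppm. Its 2.51 points at 30 ppm had an adjusted p of 1.49e-05 by Fisher's exact test, but stayed under the minimum of 5 points.

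Long gene bodies can hide local differences, so 1 kb tiles with at least 3 CpGs were tested in the same way, with a minimum difference of 10 points. Of the 273 tiles at the members, 3 were called higher in KO at 30 ppm and 2 at 3 ppm, set against 1.13% and 1.10% of the 1863069 tiles of the genome. None was called lower in either diet (0.0487% and 0.113% of all tiles), while 23 and 26 member tiles had an unadjusted p under 0.05 in either direction. These were 8.42% and 9.52% of the member tiles, beside 9.76% and 10.03% of all tiles.

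The largest difference lay in an intron of Pemt, about 71.0 kb past the start (chr11:59975001-59976000, 13 CpGs). This tile read 73.8% in KO 30 ppm, 41.9% in WT 30 ppm, 65.0% in KO 3 ppm and 40.8% in WT 3 ppm. It was the only member tile called at both diets, 31.9 points higher in KO at 30 ppm (adjusted p = 0.000486) and 24.2 points at 3 ppm (adjusted p = 0.00468, both by Fisher's exact test). Fewer than 3 of its CpGs had 10 reads in every library, so with that minimum it could not be tested, and at matched mean coverage the call at 3 ppm was lost (adjusted p = 0.138, exact test). Its difference of log odds ratios between the diets had an adjusted Wald p of 0.857. In the printed Pemt sequence, 6 of 8 CpGs were higher in KO at 30 ppm and 8 of 8 at 3 ppm, with stretch levels of 55.4% in KO 30 ppm, 29.6% in WT 30 ppm, 46.2% in KO 3 ppm and 32.8% in WT 3 ppm. Since the tile was picked for its difference, this tally is a description without a test.

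Another Pemt intron tile (chr11:60009001-60010000, 11 CpGs) read 84.3% in KO 30 ppm, 66.2% in WT 30 ppm, 82.0% in KO 3 ppm and 76.9% in WT 3 ppm. Its 18.2 points at 30 ppm were called (adjusted p = 0.0405, Fisher's exact test) and its 5.09 points at 3 ppm were not. With 10 reads per CpG, the call at 30 ppm was lost (adjusted p = 0.558, exact test). A Bhmt tile about 16.5 kb past the start (chr13:93621001-93622000, 19 CpGs) read 88.3% in KO 30 ppm, 71.8% in WT 30 ppm, 81.7% in KO 3 ppm and 75.7% in WT 3 ppm. WT 30 ppm was the lowest library there, and KO was 16.5 points above it (adjusted p = 0.00283, Fisher's exact test). With 10 reads per CpG, 9 CpGs remained and the 7.87 points were not called (adjusted p = 0.763, exact test). In the printed Bhmt sequence, also picked by the called difference of its tile, 11 of 13 CpGs were higher in KO at 30 ppm and 9 of 13 at 3 ppm. The fourth place was the Mat1a tile just before the start (chr14:41104001-41105000, 11 CpGs), which shares its CpGs with the promoter above. It was 15.2 points higher in KO at 3 ppm (adjusted p = 0.00117, Fisher's exact test), with 93.2% against 78.1%, and 7.39 points at 30 ppm was not called.

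**Figure D4:**
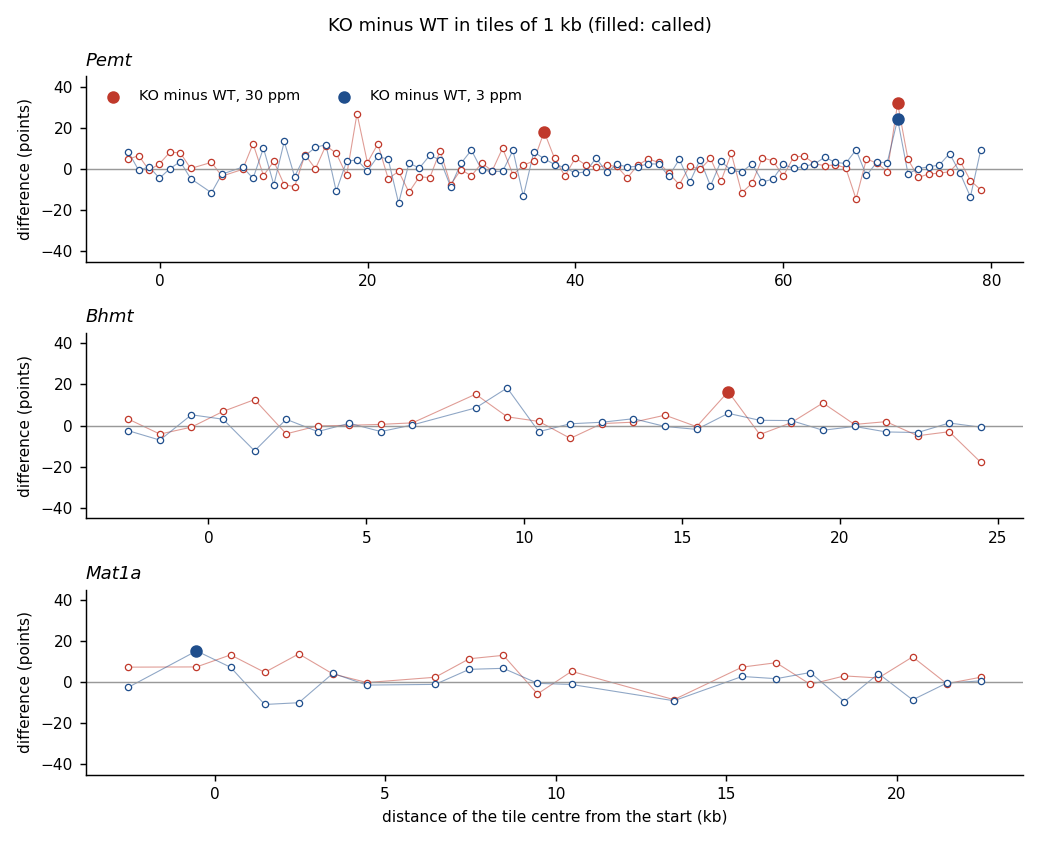
KO minus WT methylation in percentage points (y axis) of 1 kb tiles against distance from the start site in kb (x axis) along Pemt, Bhmt and Mat1a, at 30 and 3 ppm (colours), with called tiles filled. The Pemt tile 71.0 kb past the start is higher in KO at both diets, by 31.9 and 24.2 points.

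The authors' own lists of differentially methylated regions, called between single libraries, held 1 region at the members: a region higher in KO at 30 ppm that covers the Bhmt2 start (chr13:93674279-93674552, 25 CGs) and all of the printed gap. The list it comes from holds 4436 regions, and the list higher in KO at 3 ppm holds 4437, with 0 at the members. The other lists hold 54 to 139 regions each. The share of all genes with a region was not counted. None of the CpGs in the Bhmt2 region had 5 reads in all 4 libraries, so no value above includes it. Over the CpGs each table lists there, KO 30 ppm read 45.9% (34.0 to 58.3%, 15 CpGs, 61 reads), WT 30 ppm 3.80% (1.30 to 10.6%, 22 CpGs, 79 reads), KO 3 ppm 21.4% (13.4 to 32.4%, 7 CpGs, 70 reads) and WT 3 ppm 6.11% (3.13 to 11.6%, 23 CpGs, 131 reads). Both WT libraries were low, but the KO libraries share no listed CpG, since all 15 of KO 30 ppm lie on the Dmgdh side and all 7 of KO 3 ppm on the Bhmt2 side. The region was chosen by KO against WT at 30 ppm, so these values are a description without a test.

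Folic acid was compared within each genotype, between embryos of different litters. In KO, 0 of the 40 windows were called higher and 0 lower between 30 and 3 ppm by Fisher's exact test, beside 0.469% and 0.337% of all windows. In WT, 0 were called higher and 0 lower, beside 0.307% and 0.449%. At an unadjusted p under 0.05 there were 5 windows in KO and 4 in WT, where 12.8% and 13.0% of all windows reached it. The lowest adjusted p was 0.145 in KO (Mat1a promoter, exact test) and 0.193 in WT (Mat1a downstream flank, exact test).

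Of the 10 promoters, 8 had a value below 0 for 30 minus 3 ppm in KO, with a median of -3.82 points where all promoters had 0.32. This tally holds for summed reads, since by the mean over CpGs 5 were below 0 and 5 above, with a median of -1.31 points. Over all 40 windows, 24 were above 0 and 16 below in KO (median 0.53 points, beside 0.52 over all genes), and in WT 10 were above 0 and 30 below (median -1.77 points, beside -0.50). Over all genes, 31.2% of gene bodies to 48.7% of promoters were above 0 in WT, and 53.6% of promoters to 68.1% of gene bodies in KO. The Mat1a promoter had -8.23 points (interval -14.8 to -2.36), Gnmt -8.01 (interval -15.4 to -0.669) and Ahcy -4.99 (interval -9.20 to -0.512), none of them called. In the other direction, the Mat2a promoter had 5.08 points (interval 0.934 to 9.98) and was not called either. With no minimum of reads, the Ahcy promoter was called lower (-5.04 points, adjusted p = 0.0428, exact test), and with 2.5 kb on each side the Mat2a promoter was called higher (8.90 points, adjusted p = 0.0251, exact test). In WT the largest promoter value was that of Mat1a, -4.14 points (interval -11.4 to 3.18), and the largest of any window that of the Mat1a downstream flank, -12.5 points. Among member tiles, 0 were called higher or lower in KO (0.0430% and 0.0253% of all tiles) and 0 in WT (0.00886% and 0.0381%), while 20 and 17 had an unadjusted p under 0.05. These were 7.33% and 6.23% of the member tiles, beside 7.13% and 6.54% of all tiles.

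Whether the KO minus WT difference itself differed between the diets was tested by a Wald test of the difference of log odds ratios. None of the 40 windows was called, beside 4.33% of all windows. An unadjusted p under 0.05 was found in 7 of them, where 15.2% of all windows had one. For the Mat2a promoter, called at 30 ppm alone, the adjusted Wald p was 0.288, and the lowest was 0.104 (Mat1a gene body). The promoters called at one diet were therefore not shown to differ between diets.

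A model over all 4 libraries used genotype and diet as terms (limma, log2 of methylated over unmethylated counts). Its 1 residual degree of freedom is the departure from additive genotype and diet terms. Its error also draws on other genes, worth 5.72 to 14.8 degrees of freedom by window type, and is not a spread between replicates. For genotype, 0 of 40 windows were called, beside 4.95% of all windows, and 4 had an unadjusted p under 0.05, which 22.7% of all windows reached. The Mat1a promoter came nearest, with a log2 difference of 1.16 (SE 0.305, limma adjusted p = 0.0667), followed by the Bhmt2 promoter with 0.81 (SE 0.27, limma adjusted p = 0.108). For diet, 0 of 40 were called, beside 0.0101% of all windows, and 1 had an unadjusted p under 0.05 (Mat2b downstream flank), which 4.80% of all windows reached. Thus no member was called in this model.

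Promoters of 33 other autosomal genes of the pathway gave a setting for the members. In KO against WT, 9 of 33 (27.3%) were called higher at 30 ppm and 10 (30.3%) at 3 ppm, with 0 lower, beside the 20.4% and 24.4% of all promoters. Small-molecule methyltransferases, which use SAM on single metabolites, had 4 of 9 called at 30 ppm and 7 of 9 at 3 ppm. The choline and betaine genes had 2 and 3 of 11, among them Dmgdh, whose promoter overlaps that of Bhmt2. Of the rest, methionine regeneration and transsulfuration genes had 2 and 0 of 5, and methionine salvage and polyamine genes 1 and 0 of 8.

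Pnmt, which makes adrenaline, read 89.2% in KO 30 ppm, 66.7% in WT 30 ppm, 79.0% in KO 3 ppm and 71.6% in WT 3 ppm (22.6 points at 30 ppm, adjusted p = 0.00122, Fisher's exact test). Gamt, which makes creatine, read 12.3%, 3.39%, 15.9% and 2.58% in the same order and was called at both diets, by 8.88 and 13.3 points. Gamt lies on chromosome 10 with Tet1, and a part of the allele's flanking sequence in its values was not tested. Apip of the methionine salvage pathway was 16.4 points higher in KO at 30 ppm (38.6% against 22.3%) and differed by 1.02 points at 3 ppm (33.2% against 32.2%), which was not called. At 3 ppm, Chdh, which oxidises choline toward betaine, was 13.3 points higher in KO (73.0% against 59.7%), and its 8.57 points at 30 ppm (72.4% against 63.8%) were not called. Adi1, of methionine salvage, gave the only diet call among the 33 promoters, 33.2% in KO 30 ppm against 50.9% in KO 3 ppm (adjusted p = 0.0200, Fisher's exact test).

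**Figure D5:**
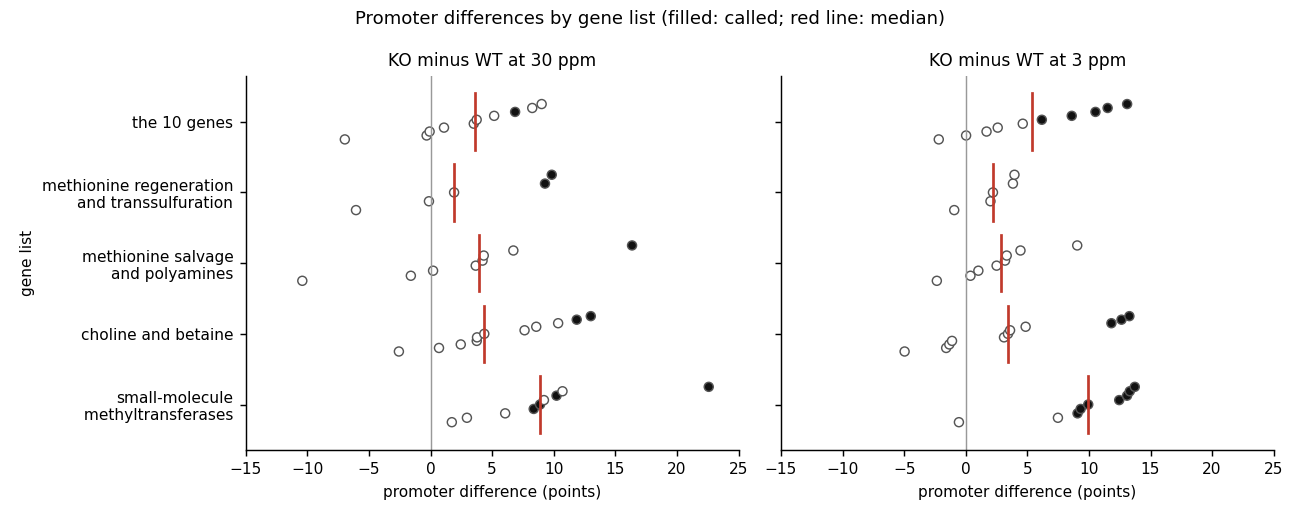
KO minus WT promoter difference in percentage points (x axis) for the 10 genes and 4 lists of other pathway genes (y axis), with a panel each for 30 and 3 ppm, 1 point per gene (filled: called) and a red line for the median. The 9 small-molecule methyltransferases have medians of 8.88 and 9.94 points, the 10 genes 3.62 and 5.40.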

How the data were processed

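WGBS was done on 4 E11.5 brains, 1 library per group. The authors trimmed reads (Trim Galore 0.6.10), aligned them to mm10 (Bismark 0.23.1), removed duplicates and merged strands. Each deposited table holds a methylated fraction and a read count per CpG. Fraction times count, whole within 4.37e-11, gave methylated counts. The authors' lists of differentially methylated regions were used for positions only, and their comparison columns were not used.

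CpGs that had 5 or more reads in every library entered windows and tiles of at least 3 CpGs. Counts were summed and compared by Fisher's exact test, Benjamini-Hochberg adjusted over all autosomal protein-coding genes per window type, or over all tiles. Levels carry 95% Wilson intervals and differences Newcombe intervals, which cover counting error only. limma 3.58.1 (R 4.3.3) used log2((methylated + 1)/(unmethylated + 1)). Python 3.11.15, numpy 2.4.6, scipy 1.17.1 and pandas 2.3.3 were used. The tests were checked on simulated data with independent counts. That check could not cover the dependence between CpGs on a read, so it does not vouch for the p-values here.

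The members and lists were chosen with earlier results of these data known. All 10 members are named, with other windows where called, up to 8 called tiles and up to 6 other called promoters by size of difference. Asmt, Pcyt1b, Sms and Gata1 are not on the autosomes and were not analysed here. Values of some listed genes are not reported here. Alternatives were minimum reads, thinning to the same mean autosomal coverage, promoter width, start site, whole gene, minimum difference, mean over CpGs, shifted tiles, z scaling and pseudocount.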

Additional observations from a re-analysis of the deposited data

Results flagged for a closer look

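Within the authors' region that covers the Bhmt2 start, the CpGs listed in KO 30 ppm read 45.9% methylated (34.0 to 58.3%, 15 CpGs, 61 reads). All of them lie from the Dmgdh start on, where WT 30 ppm read 3.51% (0.968 to 11.9%, 15 CpGs, 57 reads), and none at the Bhmt2 start itself is listed for KO 30 ppm. It is singled out because these CpGs lie outside every window value of the report, having fewer than 5 reads in at least 1 library, and their level exceeds that of the WT libraries. KO 30 ppm had 2 to 8 reads per CpG there. The region was selected by this contrast, so the values carry no test.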

How the results depend on the processing

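With 1 library per group, no library could be left out and no value has a replicate error. No paired analysis was possible because each group holds 1 replicate number and the litters differ. The limma fit used genotype and diet as terms. Of 120 recomputed counts of called windows or tiles, 20 moved by over 1.5 times. For KO against WT at 30 ppm, the 2 windows called higher became 1 with at least 10 reads and 1 with the whole gene as body, and 0 with a minimum of 10 points and 0 with z values divided by their robust SD. The 3 tiles became 0 with at least 10 reads and 1 with scaled z. With no minimum of reads, 1 window was called lower (Ahcy promoter, -6.01 points). At 3 ppm, the 5 windows became 2 with at least 10 reads, 1 with libraries thinned to the same mean coverage, 1 with promoters of 2.5 kb on each side, 2 with 0.5 kb, 3 with a minimum of 10 points and 0 with scaled z. The 2 tiles became 1 with at least 10 reads, 1 at the same mean coverage and 0 with scaled z, and 1 tile was called lower with tiles shifted by 0.5 kb. For 30 against 3 ppm in KO, 1 window was called higher with at least 10 reads, 1 with promoters of 2.5 kb, and 1 lower with no minimum of reads (Ahcy promoter). The Mat2b promoter at 3 ppm turned to -0.442 points at the start of the longest coding transcript and to -1.09 as the mean over CpGs. Among the named differences that were not called, 42 of the recomputed values changed sign. Shares over all windows or tiles at each setting are not given here, so these counts are not set against a background. The settings act on all genes. Calls by limma for genotype over all genes fell from 3922 of 79265 windows to 1270 of 71103 with at least 10 reads. At the same mean coverage they fell to 1906 of 78950. The causes of these changes were not tested.

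Among the called windows, that of the Mat1a promoter held in 7 of 9 tested settings (adjusted p 0.000104 to 0.258), the Mat2a body in 6 of 9 (0.0179 to 0.565), the Mat2a promoter in 5 of 8 (0.000267 to 0.873), Bhmt2 in 5 of 9 (0.000653 to 0.409), Gnmt in 4 of 9 (0.00996 to 0.708), and Cbs (0.00116 to 0.562) and Mat2b (0.0212 to 0.852) in 3 of 9, by Fisher's exact test or scaled z. Some of these settings left a window unchanged and were no check on it. Promoter width does not alter a gene body, and the whole-gene setting does not alter a promoter. The start of the longest coding transcript is the same as the main start for Mat1a, Mat2a, Bhmt2 and Gnmt. limma called 0 of the members' windows in each of its 4 settings, for genotype and for diet.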

Other observations

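Of the 567 CpGs measured within 3 kb of the members' starts, 3 read 0% in all 4 libraries between neighbours whose medians over libraries both exceeded 60%: position -1658 from the Gnmt start (78 reads in all) and positions 300 and 2447 from the Nnmt start (85 and 35 reads). Further CpGs at 0% in all 4 libraries, such as those at positions 1398 of Ahcy and -1677 of Nnmt, lie beside a methylated CpG but did not meet this limit on both sides. The embryos are of 129S6 background and the reference is C57BL/6. A base difference at these CpGs was not tested.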
